A study of Bubalus bubalis with 8 samples.

Results

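The morula library of buffalo parthenogenesis was set against the 16-cell library, an interval in which embryos compact, that is, in which the loose blastomeres flatten against each other. Both libraries come from a series of 8, with 1 library for each stage. The stages run from the immature oocyte at the germinal vesicle stage (GV) and the mature oocyte at metaphase II (MII) through parthenogenetic embryos of 2, 4, 8 and 16 cells to the morula and the blastocyst, all of water buffalo (Bubalus bubalis) and produced in vitro. In parthenogenesis the egg is activated without sperm, so every embryo in the series carries maternal genomes only. The labels name no breed or animal, no number of embryos per library and no hours after activation. The comparison was made over the gene IDs with at least 10 FPKM (sequenced fragments relative to the length of the transcript and the size of the library) in the morula or the 16-cell library. These were 7192 of the 18220 numbered IDs (the word gene and a number) and 550 of the 10439 IDs that the authors name as new genes.

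At compaction, E-cadherin and its catenin partners draw neighbouring cells together, and the outer cells acquire an apical and a basal side. Tight junctions and ion transport then let the outer layer, the future trophectoderm, enclose a fluid-filled cavity and form the blastocyst. In cattle, a close relative, the embryo's own transcription takes over from stored maternal RNA before this, around the 8-cell to 16-cell stage. The table pairs no ID with a gene symbol. None of the 28659 IDs (0 matches) was found in a RefSeq gene table of the buffalo assembly NDDB_SH_1, so the 8 lists of junction, polarity, transport, lineage, oocyte and cumulus cell genes had 0 members found. The stage labels could for the same reason not be checked against marker genes, and the results are given for groups of IDs.

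With 1 library on each side no replicate error can be given and no test was made, and every count below describes these 2 libraries. Sequencing depth is unknown. FPKM is a share of the library, so in these bulk values fewer cells of a type and less RNA per cell cannot be told apart. The column sums of the 8 libraries ran from 892286 to 2501133 FPKM, with 2501133 in the morula and 1162574 in the 16-cell library. The morula library detected fewer numbered IDs at 1 FPKM or more than the 16-cell library (9953 against 12003) and listed more of them at exactly 0 (30.1% against 12.2%). At 10 FPKM or more the numbers were close, 5737 numbered IDs in the morula and 5832 in the 16-cell library. An ID was called higher or lower in the morula when its log2(FPKM + 1) values were at least 2 units apart, which is 4-fold on that scale.

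Among numbered IDs the morula and 16-cell libraries differed in both directions. As deposited, 1372 of 7192 numbered IDs were higher in the morula (19.1%) and 1105 were lower (15.4%), together 34.4% of those compared. Higher IDs were thus 55.4% of the differing ones. After median-of-ratios scaling over the 11218 IDs above 0 in all 8 libraries, 1361 numbered IDs were higher (18.8%) and 1123 lower (15.5%) of 7234, together 34.3%. The same rule called 47.7% of numbered IDs between the 16-cell and 8-cell libraries and 17.1% between the blastocyst and morula libraries, and each of these comparisons shares a library with the present one. Higher IDs had a median difference of 3.01 log2 units (quartiles 2.42 and 4.04), and lower IDs one of -3.17 (quartiles -4.05 and -2.47). Of the higher IDs, 188 differed by 5 units or more and 73 by 8 or more, against 124 and 8 of the lower IDs. The tail of very large differences was therefore longer on the side of the morula. An exact 0 on the low side was the exception. It was listed for 86 of the 1372 higher IDs in the 16-cell library and for 161 of the 1105 lower IDs in the morula.

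**Figure D1:**
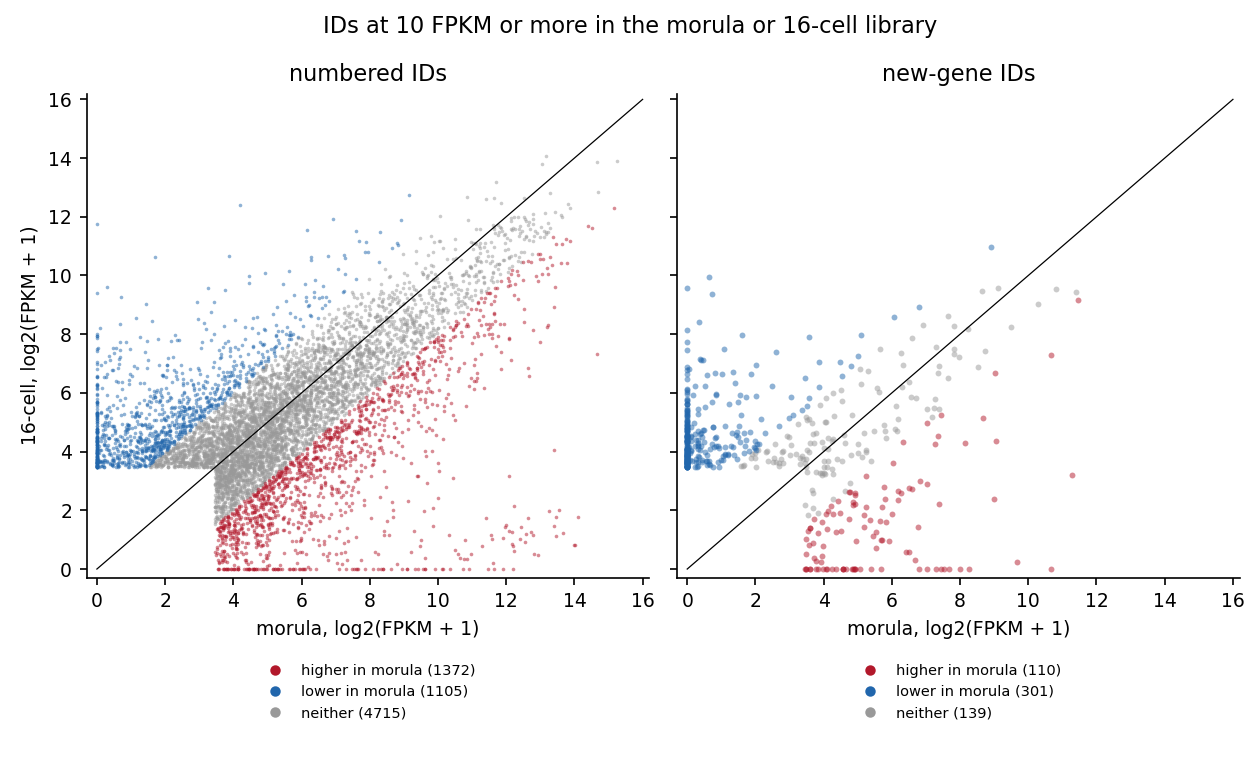
Level of each compared ID in the morula (horizontal axis) and the 16-cell library (vertical axis), both as log2(FPKM + 1), for numbered IDs (left) and new-gene IDs (right). Each point is an ID, the line marks equal values, red marks the 1372 and 110 IDs higher in the morula, blue the 1105 and 301 lower ones; red points along the bottom reach far to the right, with 73 numbered IDs at 8 units or more.

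The balance between higher and lower IDs depended on how the libraries were put on a common scale. The 8-library median of ratios moved the difference by only -0.01 log2 units (factors of 0.99 for the morula and 0.98 for the 16-cell library). Taking the median over the 13966 IDs above 0 in the morula and 16-cell libraries moved it by 0.16 units and gave 1514 higher and 991 lower numbered IDs. Taking it over the 4490 IDs with at least 10 FPKM in both moved it by -0.37 units and turned the balance, with 1068 higher and 1430 lower (42.8% of the differing IDs higher). Rescaling each library to a sum of 1000000 moved it by -1.11 units and gave 554 higher and 1777 lower (23.8% higher). Giving both libraries the same distribution of numbered IDs left the balance near even, with 1172 higher and 1218 lower (49.0% higher). Single IDs crossed the limit of 2 units but not from one direction to the other, which shifts of this size could hardly produce. Under all these scalings, 549 of the 1372 higher IDs remained higher and 934 of the 1105 lower IDs remained lower, and 0 IDs of either group were called in the other direction under any of them.

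**Figure D2:**
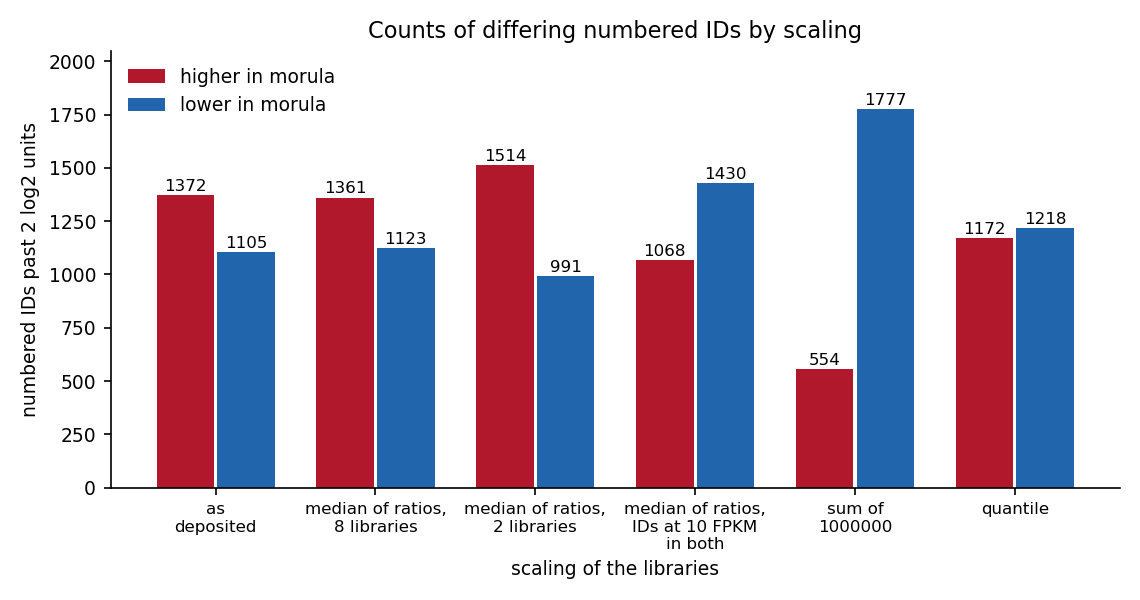
Number of numbered IDs at least 2 log2 units higher (red) or lower (blue) in the morula than in the 16-cell library, under each scaling of the libraries named on the horizontal axis. More IDs were higher than lower as deposited (1372 and 1105), and fewer after rescaling to the same sum (554 and 1777).

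How the difference varied with the level of an ID depended on the library in which the level was read. Numbered IDs were first grouped by their mean log2(FPKM + 1) over the 6 libraries outside the comparison, the blastocyst included, converted back to FPKM. In the group under 1 FPKM, 93 of 382 numbered IDs were higher in the morula and 172 lower, and the median difference was -1.57 log2 units. At 1 to under 10 FPKM the median difference was 0.20 units, at 10 to under 100 FPKM it was 0.30, and at 100 FPKM or more it was 0.57, with 236 higher and 130 lower of 1343. Grouped by the 8-cell library alone the order was the reverse, with a median difference of 0.81 units for IDs under 1 FPKM, 0.37 at 1 to under 10 FPKM and 0.25 at 10 FPKM or more. Grouped by the GV oocyte, it was 0.62 units under 1 FPKM, -0.01 at 1 to under 10 FPKM and 0.39 at 10 FPKM or more. At the top of the range, 450 numbered IDs had at least 1000 FPKM in the morula and 231 had in the 16-cell library. The 181 IDs at this level in both had a median of 4368 FPKM in the morula and 2184 FPKM in the 16-cell library, and 27 of them were higher and 0 lower by the rule. As a share of the FPKM sum, the 1372 higher IDs held 46.2% in the morula and 9.42% in the 16-cell library, and the 1105 lower IDs held 0.523% in the morula and 12.5% in the 16-cell library.

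The IDs named singly are the 2 numbered IDs furthest apart in each direction among those above 0 in both libraries. gene152 stood at 16571 FPKM in the morula and 0.766 FPKM in the 16-cell library, a difference of 13.20 log2 units. It was listed at 0 in the GV oocyte, the MII oocyte and the 2-cell embryo, had 75.5 FPKM at the 4-cell and 12 FPKM at the 8-cell stage, and reached 8852 FPKM in the blastocyst. gene25661 followed the same course, with 16295 FPKM in the morula and 0.745 FPKM in the 16-cell library, a difference of 13.19 units. It too was listed at 0 up to the 2-cell stage, had 28.7 FPKM at the 4-cell and 13.2 FPKM at the 8-cell stage, and reached 7214 FPKM in the blastocyst. Both were first above 0 in the 4-cell library, and they ranked 9 and 10 among numbered IDs in the morula. In the other direction, gene16355 was at 0.231 FPKM in the morula and 777 FPKM in the 16-cell library (-9.30 units). It was listed at 0 in the oocytes and up to the 4-cell stage, had 0.181 FPKM at the 8-cell stage and 0.792 FPKM in the blastocyst, so the 16-cell library was the single library in which it was abundant. gene856 was at 2.25 FPKM in the morula and 1575 FPKM in the 16-cell library (-8.92 units). It had 177 FPKM at the GV stage and 39.2 FPKM at the MII stage, then 4.35 FPKM in embryos of 2 cells, 0.195 FPKM at 4 cells and 23.4 FPKM at 8 cells, and was listed at 0 in the blastocyst. It was thus an oocyte transcript that was low by the 4-cell stage and most abundant in the 16-cell library. Under the scalings above, these differences ranged from 11.96 to 13.31 units for gene152 and from -9.71 to -9.21 for gene16355.

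A group of 53 numbered IDs had, like gene152, at least 1000 FPKM in the morula and under 10 FPKM in the 16-cell library. These limits were chosen after the values were seen and fix the low 16-cell and high morula levels, so only the other libraries describe the group. Their median was listed at 0 in the GV oocyte, the MII oocyte and the 2-cell embryo, then 14.4 FPKM at 4 cells, 5.81 FPKM at 8 cells, 1.04 FPKM at 16 cells, 4063 FPKM in the morula and 2907 FPKM in the blastocyst. Of the 53, 47 were under 1 FPKM in the GV oocyte and 49 in the MII oocyte, against 2 in the 4-cell and 6 in the 8-cell embryo. Members varied, since 31 were at 10 FPKM or more in the 4-cell and 12 in the 8-cell embryo, and 4 had a GV level of at least 10 FPKM, up to 40.2 FPKM. In the blastocyst all 53 were at 10 FPKM or more and 48 were at 1000 FPKM or more. The other 397 IDs with at least 1000 FPKM in the morula had at least 10 FPKM in the 16-cell library. All 397 were at 10 FPKM or more in the blastocyst too, and 292 were at 1000 FPKM or more, so the first count is no trait of the 53. Of the 397, 370 were at 10 FPKM or more in the 4-cell and 378 in the 8-cell embryo. Added up, the 53 IDs made 10.9% of the FPKM total in the morula and 0.00681% in the 16-cell library. The reverse pattern, at least 1000 FPKM in the 16-cell library and under 10 FPKM in the morula, was found for 2 numbered IDs.

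**Figure D3:**
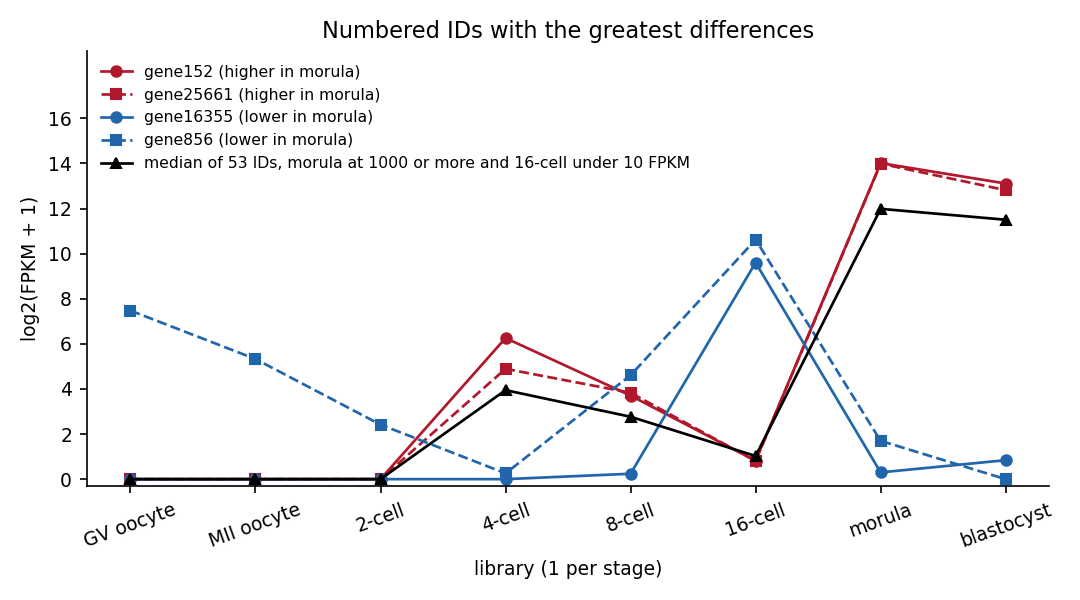
Level of the named IDs in each of the 8 libraries, as log2(FPKM + 1), with red lines for gene152 and gene25661 (higher in the morula), blue lines for gene16355 and gene856 (lower), and a black line for the median of the 53 IDs with at least 1000 FPKM in the morula and under 10 FPKM in the 16-cell library. The low 16-cell and high morula levels of the red and black lines are set by how the IDs were chosen. Outside that choice, these lines are at 0 up to the 2-cell stage, between 5.81 and 75.5 FPKM at 4 and 8 cells and high in the blastocyst.

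The blastocyst library, which the rule did not use, stood nearer the morula than the 16-cell library for most differing IDs. The 1372 higher numbered IDs had a median of 98.8 FPKM in the morula and 6.92 FPKM in the 16-cell library, and their blastocyst median was 81.5 FPKM (quartiles 25.9 and 439). Of these, 1230 were at 10 FPKM or more in the blastocyst (89.7%) and 19 were under 1 FPKM. The blastocyst value lay nearer the morula than the 16-cell value for 85.5% of them, and 7.87% were at least 2 units below their morula value. The 1105 lower IDs had a median of 2.25 FPKM in the morula and 32.2 FPKM in the 16-cell library, and their blastocyst median was 3.36 FPKM. Their blastocyst value lay nearer the morula value for 82.4%, while 14.0% were at least 2 units above it and 27.3% were at 10 FPKM or more. Among the 4715 IDs that did not differ, the blastocyst value was nearer the morula value for 60.8%, and 75.6% were at 10 FPKM or more. Scaled by the 8-library median of ratios, the shares nearer the morula value were 87.4% of the higher and 81.1% of the lower IDs. Over all 7192 IDs, Pearson's r was 0.88 for the morula and blastocyst libraries and 0.52 for the morula and 16-cell libraries. It runs across IDs, which share their libraries and are not independent replicates. The minimum of 10 FPKM was set on the morula and 16-cell libraries and left out IDs low in both. That can lower their r, so these values are not on equal terms. The morula and blastocyst libraries were also alike as a whole, with FPKM sums of 2501133 and 2239886 against 1162574 in the 16-cell library. They listed 30.1% and 24.5% of numbered IDs at exactly 0, against 12.2% in the 16-cell library. A likeness of the stages and a likeness of the libraries cannot be told apart here.

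With values as deposited, the higher and the lower IDs had close medians in the MII oocyte, while in the GV oocyte the higher IDs stood above the lower. In both oocyte libraries the 2 groups had lower medians than the IDs that did not differ. The median of the higher IDs was 15.4 FPKM at the GV and 10.7 FPKM at the MII stage, and that of the lower IDs was 8.95 FPKM (GV) and 11.1 FPKM (MII). IDs that did not differ had medians of 29.8 FPKM (GV) and 26.6 FPKM (MII). A GV level of at least 10 FPKM was found for 56.0% of the higher, 47.6% of the lower and 70.3% of the other IDs. Under 1 FPKM there were 22.8% of the higher and 23.3% of the lower IDs, against 5.85% of the others. After median-of-ratios scaling over 8 libraries these were 23.7%, 24.1% and 6.23%. How alike the higher and lower IDs were depended on the scaling. In at least 1 oocyte library, 58.3% of the higher and 55.9% of the lower IDs had 10 FPKM or more as deposited, but 48.9% of the higher and 62.5% of the lower IDs after rescaling to a sum of 1000000, and 50.1% and 60.5% after quantile normalization. Of the higher IDs, 31.7% had a GV value and 25.4% an MII value nearer the morula than the 16-cell value. Within 1 unit of the 16-cell value were 38.7% of their GV values and 41.5% of their MII values, and 25.1% (GV) and 20.5% (MII) stood at least 2 units above it. For the lower IDs the oocyte values were divided, with 54.8% of the GV and 50.5% of the MII values nearer the morula value. Of their GV values, 34.0% were within 1 unit of the morula value and 20.9% within 1 unit of the 16-cell value. A further 12.6% stood at least 2 units above the 16-cell value and 6.33% at least 2 units below the morula value.

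**Figure D4:**
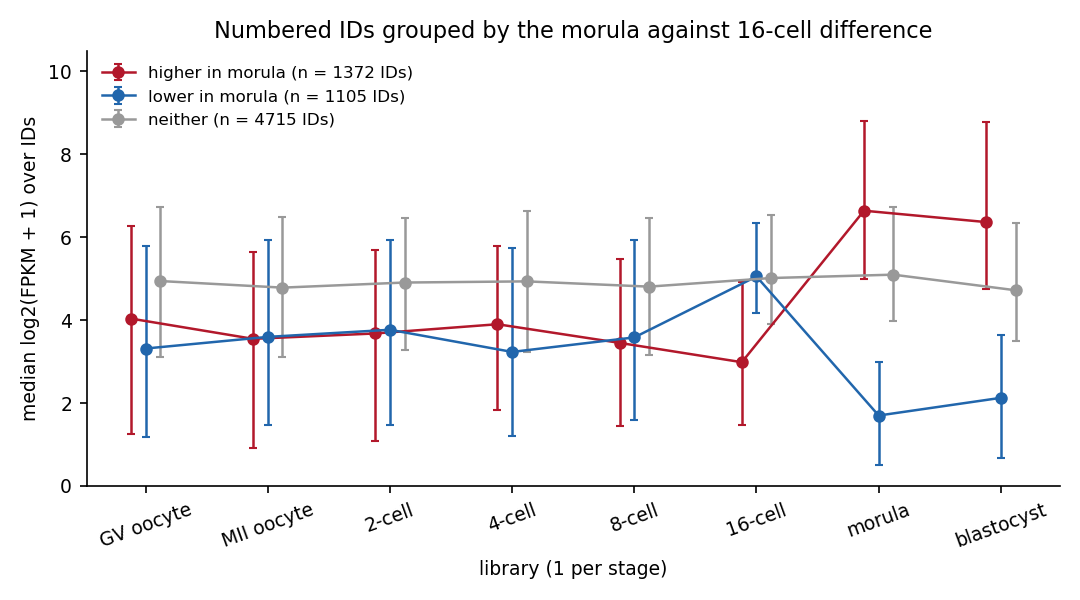
Median level of numbered IDs in each of the 8 libraries, as log2(FPKM + 1), for the 1372 IDs higher in the morula (red), the 1105 lower ones (blue) and the 4715 that did not differ (grey); bars run from the lower to the upper quartile over IDs and are not replicate errors. The red line lies between 6.92 and 15.4 FPKM up to the 16-cell library and is high in the morula and blastocyst, and the blue line has its highest median, 32.2 FPKM, in the 16-cell library. How far apart the 16-cell and morula levels of the red and blue lines lie is set by how the IDs were chosen.

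**Figure D5:**
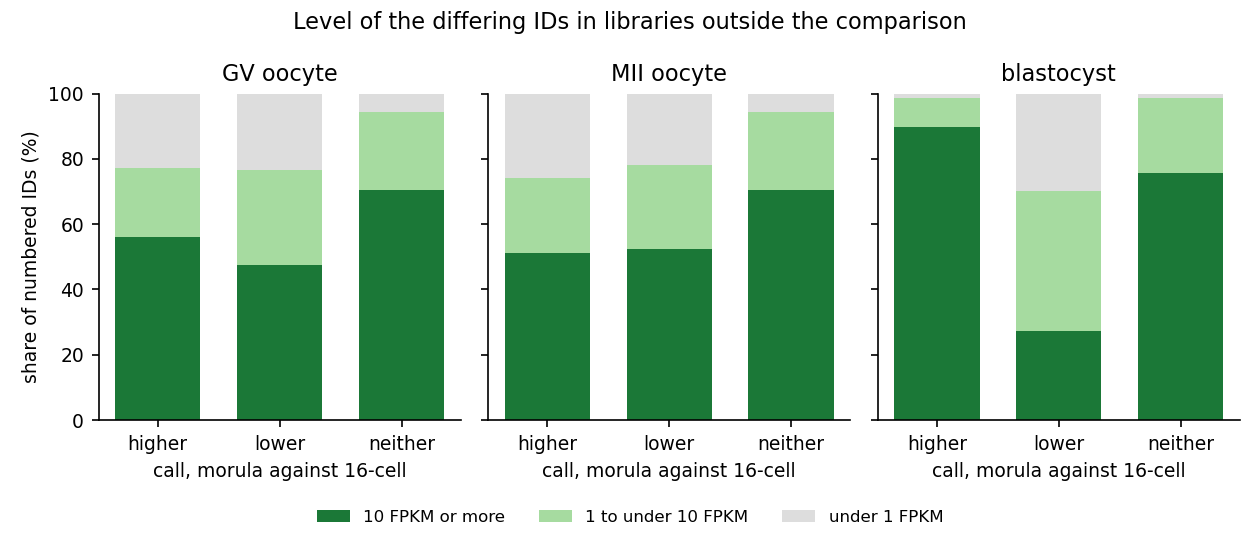
Share of numbered IDs at 10 FPKM or more (dark green), at 1 to under 10 FPKM (light green) and under 1 FPKM (grey) in the GV oocyte, MII oocyte and blastocyst libraries, for IDs higher or lower in the morula than in the 16-cell library and for those that did not differ. The blastocyst panel separates higher IDs (89.7% at 10 FPKM or more) from lower IDs (27.3%), whereas the oocyte panels, with values as deposited, hold closer shares of both (56.0% and 47.6% in the GV oocyte).

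Read from the oocyte side, IDs with little oocyte transcript differed more often in both directions. Of the 4607 compared numbered IDs with a GV level of at least 10 FPKM, 16.7% were higher in the morula and 11.4% lower, against 19.1% and 15.4% of all those compared. Of the 846 under 1 FPKM in the GV oocyte, 37.0% were higher and 30.4% lower. Grouping by the MII oocyte gave the same order, with 41.3% higher and 28.1% lower among the 858 IDs under 1 FPKM. Any ID compared has at least 10 FPKM in the morula or the 16-cell library, so an ID that was low in the oocyte had to be high in an embryo library to be compared at all. Read from the blastocyst side, 24.1% of the 5098 IDs with at least 10 FPKM there were higher in the morula and 5.92% lower, while 80.2% of the 410 IDs under 1 FPKM in the blastocyst were lower in the morula.

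The higher IDs ranged from transcripts that both oocyte libraries contained to transcripts that both lacked. At 10 FPKM or more in both oocyte libraries were 672 of the 1372. Of these, 231 had a 16-cell value at least 2 units below both oocyte values (34.4%). For 144 the morula value was within 1 unit of both (21.4%), and for 246 it was at least 2 units above both (36.6%). Among the 3074 IDs of this oocyte class that did not differ, the shares were 12.3%, 28.3% and 11.2%. The choice of IDs higher in the morula favours the 231 and the 246. In the blastocyst, 645 of the 672 were at 10 FPKM or more. Under 1 FPKM in both oocyte libraries were 288 of the 1372, and 233 of those were at 10 FPKM or more in the blastocyst (80.9%). For 158 of the 288 the 16-cell value was still within 1 unit of both oocyte values. The remaining 412 of the 1372 had other oocyte levels, and 352 of them were at 10 FPKM or more in the blastocyst (85.4%). Among IDs that did not differ, the matching blastocyst shares in the same oocyte classes, in this order, were 84.1%, 48.5% and 61.3%.

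The lower IDs likewise held transcripts of the oocyte and transcripts that the oocyte lacked. At 10 FPKM or more in both oocyte libraries were 487 of the 1105. Of these, 351 had a morula value at least 2 units below both oocyte values (72.1%). By contrast, 113 had a 16-cell value that far below both (23.2%), and 118 had a 16-cell value within 1 unit of both (24.2%). Among the 3074 IDs of this oocyte class that did not differ, the shares were 11.9%, 12.3% and 29.3%. For these oocyte transcripts the morula library was therefore more often far under the oocyte level than the 16-cell library was, an order that the choice of IDs lower in the morula favours. In the blastocyst 172 of the 487 were at 10 FPKM or more and 113 were under 1 FPKM. Under 1 FPKM in both oocyte libraries were 210 of the 1105. In 138 of them the morula value was within 1 unit of both oocyte values, and 120 of the 210 were under 1 FPKM in the blastocyst as well. For 187 of the 210 the 16-cell value stood at least 2 units above the 8-cell value, as it does above the morula value by the rule. The remaining 408 of the 1105 had other oocyte levels, and 105 of them were at 10 FPKM or more in the blastocyst (25.7%). For IDs that did not differ, this share was 61.3% with other oocyte levels and 84.1% with 10 FPKM or more in both oocyte libraries. Under 1 FPKM in the blastocyst were 0.455% of the latter, and 10.2% of those under 1 FPKM in both oocyte libraries.

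Part of the difference belonged to the 16-cell library alone. Of the 1105 lower numbered IDs, 525 stood at least 2 units higher in the 16-cell library than in both the 8-cell and the morula libraries (47.5%). For 292 of them the 16-cell value was at least 2 units above each of the other 7 libraries (26.4%). Of the 1372 higher IDs, 270 had a 16-cell value at least 2 units under both the 8-cell and the morula values (19.7%), and 117 had one at least 2 units under each of the other 7 libraries (8.53%). Of these 117, 112 were at 10 FPKM or more in both oocyte libraries. The choice of the 117 asks for oocyte values at least 2 units above the 16-cell value, so it largely sets this count. The distance from the morula is set by the rule in both groups, so the 525 and the 270 rest on the 8-cell library. Among the 4715 IDs that did not differ, the 16-cell value stood at least 2 units above the 8-cell value for 25.1%. It stood at least 2 units under the 8-cell value for 11.1% of them. Scaled by the 8-library median of ratios, the counts above and below all other libraries were 307 and 106. With 1 library for the stage, a difference of the 16-cell embryo and a difference of the 16-cell library cannot be told apart.

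A stricter pair of sets took IDs that were near absent in the one library and clearly present in the other. As deposited, 230 numbered IDs had at least 10 FPKM in the morula and under 1 FPKM in the 16-cell library. Their medians were 30.4 FPKM in the morula and 0.230 FPKM in the 16-cell library. Of these, 149 were under 1 FPKM in both oocyte libraries (64.8%), 29 reached 10 FPKM in an oocyte library, 66 reached it in the 4-cell or 8-cell embryo, and 180 were at 10 FPKM or more in the blastocyst (78.3%). In reverse, 386 numbered IDs had under 1 FPKM in the morula and at least 10 FPKM in the 16-cell library, with medians of 0.0922 and 19.1 FPKM. Of these 386, 154 reached 10 FPKM in an oocyte library (39.9%), 130 were under 1 FPKM in both (33.7%), and 237 were under 1 FPKM in the blastocyst (61.4%). Among the 4715 IDs that did not differ, 206 were under 1 FPKM in both oocyte libraries and 62 were under 1 FPKM in the blastocyst. In the blastocyst 75.6% of those 4715 were at 10 FPKM or more, so the 78.3% of the 230 IDs is close to that share. More IDs were thus near absent from the morula than from the 16-cell library among those abundant in the other. The 230 and 386 IDs became 230 and 393 with the 8-library median of ratios and 142 and 497 with both libraries set to the same sum, but 311 and 278 after quantile normalization, which turned their order. The morula library also listed 5477 numbered IDs at 0 and the 16-cell library 2215, and the part of this gap in the count was not tested.

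The new-gene IDs went mostly one way. Of 550 compared, 110 were higher in the morula (20%) and 301 lower (54.7%), together 74.7%. The minimum of 10 FPKM was met by 434 new-gene IDs in the 16-cell library and by 229 in the morula. More IDs could therefore be called lower than higher. Both libraries reached the minimum for 12 of the 110 higher and 13 of the 301 lower IDs. Scaled by the 8-library median of ratios, 110 were higher (19.8%) and 308 lower (55.4%) of 556, together 75.2%. The 301 lower IDs had a median of 19.1 FPKM in the 16-cell library, and 235 of them were under 1 FPKM and 145 were listed at 0 in the morula. In the blastocyst 240 of the 301 were under 1 FPKM (79.7%), and 96.0% had a blastocyst value nearer the morula value. Many were low before the 16-cell stage too, with 149 of 301 under 1 FPKM in the GV oocyte and 166 in the MII oocyte. The 110 higher IDs had medians of 33.9 FPKM in the morula, 1.42 FPKM in the 16-cell library and 22.5 FPKM in the blastocyst. In the oocytes 18 of the 110 were at 10 FPKM or more in the GV (16.4%) and 17 in the MII oocyte (15.5%). These shares were 28.6% and 25.6% of the lower IDs, and 45.3% and 42.4% of the 139 that did not differ. Over all 10439 new-gene IDs, compared or not, 995 (GV) and 712 (MII) were at this level. Detection of new-gene IDs differed between the libraries as a whole, with 724 at 1 FPKM or more in the morula against 4103 in the 16-cell library and 681 in the blastocyst, and 81.3% listed at 0 in the morula against 29.2% in the 16-cell library. The part of this in the 301 lower IDs was not tested.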

How the data were processed

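The authors deposited 1 table of FPKM values, per the file's name, with 8 library columns and no read counts; for its aligner, genome build and annotation the sources used here give no name. Columns were tied to samples by the samples' descriptions and stages by their titles. The extraction text of the labels names another tissue and was not used. Reads could not be recovered: where neighbouring stages both listed an ID between 0.005 and 0.3 FPKM, the most frequent ratio of the pair of values was met, to 0.01 log2 units, by 1.35% to 5.34% of IDs.

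Differences are morula minus 16-cell on log2(FPKM + 1), which understates folds of low IDs, with a minimum of 10 FPKM in the higher library and a difference of at least 2 units. Named IDs are the 2 numbered IDs with the greatest difference in each direction among those above 0 in both libraries. Median-of-ratios factors use IDs above 0 in the libraries scaled. The rule was run on simulated data with an assumed noise, which cannot show how often it errs in these libraries. The comparison, rules and lists were chosen with earlier results of these data known. Python 3.11.15 with pandas 2.3.3 was used.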

Additional observations from a re-analysis of the deposited data

How the results depend on the processing

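With 1 library per stage no replicate could be left out, and depth is unknown, so how far counting limits low values cannot be given. No paired analysis was possible because the result comes from no test and each stage has 1 library. No count of higher or lower IDs moved by over 1.5 times with a pseudocount of 0.1 or with median-of-ratios scaling over 8 or 2 libraries; median-of-ratios scaling over IDs at 10 FPKM or more in both libraries and quantile normalization were chosen after seeing the data. Rescaling to a sum of 1000000 gave 554 higher and 1777 lower numbered IDs, 52 higher new-gene IDs, and 142 numbered IDs at 10 FPKM or more in the morula but under 1 FPKM in the 16-cell library. With no minimum, 1882 numbered and 1236 new-gene IDs were lower, and with a minimum of 30 FPKM, 566 numbered and 88 new-gene IDs were lower and 56 new-gene IDs higher; the minimum sets how many IDs are compared. A difference of 1 unit gave 2555 higher and 1929 lower numbered IDs, and a difference of 3 units gave 691 and 607. Of numbered IDs whose higher library had 10 to under 12 FPKM, 41 of 489 were higher and 104 lower in the morula, and just under the minimum, at 8 to under 10 FPKM, 55 of 591 were higher and 145 lower. Over all alternatives run, the share of higher IDs with a blastocyst value nearer the morula value was 72.1% to 92.5%, and that of lower IDs 78.9% to 90.0%. The share at 10 FPKM or more in an oocyte library was 46.5% to 66.5% of the higher and 46.1% to 63.3% of the lower IDs, and their order turned after rescaling to the same sum (48.9% and 62.5%), quantile normalization (50.1% and 60.5%), median-of-ratios scaling over IDs at 10 FPKM or more in both (54.3% and 57.3%) and with a difference of 3 units (46.5% and 50.4%).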

Other observations

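The most abundant numbered IDs of the morula were shared in part with the 16-cell library. Of the 100 most abundant in the morula, 48 were among the 100 most abundant in the 16-cell library, 69 among those of the blastocyst and 20 among those of the GV oocyte. The top 100 of the 16-cell library shared 24 with the 8-cell library, 24 with the GV oocyte and 39 with the blastocyst. Among the 500 most abundant, 309 were shared by the morula and 16-cell libraries (61.8%) and 401 by the morula and blastocyst libraries (80.2%). These ranks do not depend on how a library is scaled.

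The 10 most abundant IDs of all kinds took similar shares of the FPKM sum, 9.97% in the morula and 9.07% in the 16-cell library, while the 100 most abundant took 40.6% in the morula and 34.4% in the 16-cell library.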
